A study of Homo sapiens with 4 samples.

Results

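Later intron STAT5A peaks are the stretches of chromatin, enriched by an antibody against the transcription factor STAT5A, that the authors' annotation placed in an intron of a transcript other than its first. They were chosen by that annotation alone, with no use of any measured value. The knockdown list held 3217 of them among 31227 peaks, a share of 10.3% (exact Clopper-Pearson 95% interval 9.97 to 10.6). The wild-type list held 6659 among 55269, a share of 12% (interval 11.8 to 12.3), so that 9876 of the 86496 peaks in both lists were later intron peaks. The first introns held 1577 and 3376 peaks, so later introns carried the larger part of the intronic peaks in both lists.

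The study used ARP1, an established multiple myeloma cell line labelled as bone marrow, in 2 conditions: wild-type cells and cells with a knockdown of YTHDF2. Each condition had 1 chromatin immunoprecipitation with a STAT5A antibody (abcam ab32043) and 1 input library of sonicated, formaldehyde-fixed chromatin that saw no antibody, 4 libraries in all. How YTHDF2 was knocked down, whether a control construct was used and how many clones were grown is not stated by the labels, and the general design text speaks of histone modifications where the labels name STAT5A. There was 1 peak list per condition, so no difference between conditions has a replicate check and none is tested; read depth is unknown. Intervals on shares cover counting error only, and a weaker signal cannot be told apart from fewer bound cells, from a shallower library or from a less efficient immunoprecipitation.

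As background, STAT5A is a latent cytoplasmic factor that JAK kinases phosphorylate downstream of cytokine receptors, after which it forms dimers, enters the nucleus and binds palindromic sites of the form TTCNNNGAA. YTHDF2 is a cytoplasmic reader of N6-methyladenosine that promotes decay of methylated mRNA. Introns downstream of the first hold enhancers, start sites of shorter transcripts of the same gene, and start sites of other genes, among them long noncoding RNAs, that lie inside a host gene.

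Start sites of the host gene or of another gene give some later intron peaks a sequence that can be shown. Few of the peaks touched a RefSeq start window (250 bases before to 50 after a transcript start, GRCh38.p14) by at least 1 bp. A window can reach beyond the peak, and so can a motif match in it. Printed here are 7 such windows: the 4 with a peak summit inside and the highest fold, those touched by peaks of both lists that hold the STAT palindrome anywhere in the window, and the window in JAK2, the kinase upstream of STAT5A. The windows are LINC03006 (chr7:65750875-65751174, minus strand), FAM193A (chr4:2536397-2536696, plus), LOC124909476 (chr3:195106494-195106793, minus), RAP1GAP2 (chr17:2853434-2853733, plus), LOC107985904 (chr2:80322391-80322690, plus), LOC124906252 (chr3:160039010-160039309, minus) and JAK2 (chr9:5041282-5041581, plus). Each reads 5′ to 3′ on the strand of its transcript, and capitals mark every match, on either strand, to 8 motifs: TTCNNNGAA (STAT palindrome), CCAAT (the box bound by NF-Y), CCGGAAG (ETS core), GGGCGG (GC box of SP and KLF factors), TGANTCA (AP-1), TGACGTCA (cyclic AMP response element), GCATGCG (NRF1 core) and GCCATNTTG (YY1 core).

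LINC03006: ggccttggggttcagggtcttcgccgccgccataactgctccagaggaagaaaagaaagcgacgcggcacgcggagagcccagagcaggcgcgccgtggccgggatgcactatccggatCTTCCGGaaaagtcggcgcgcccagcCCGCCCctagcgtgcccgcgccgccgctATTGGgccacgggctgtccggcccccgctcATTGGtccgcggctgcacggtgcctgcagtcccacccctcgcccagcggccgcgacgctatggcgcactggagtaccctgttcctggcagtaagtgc

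FAM193A: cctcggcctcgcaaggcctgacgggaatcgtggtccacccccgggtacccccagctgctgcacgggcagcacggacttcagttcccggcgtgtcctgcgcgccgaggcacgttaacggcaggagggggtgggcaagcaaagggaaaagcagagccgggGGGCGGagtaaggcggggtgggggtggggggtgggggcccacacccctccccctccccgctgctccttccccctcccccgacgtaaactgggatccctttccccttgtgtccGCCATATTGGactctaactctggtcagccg

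LOC124909476: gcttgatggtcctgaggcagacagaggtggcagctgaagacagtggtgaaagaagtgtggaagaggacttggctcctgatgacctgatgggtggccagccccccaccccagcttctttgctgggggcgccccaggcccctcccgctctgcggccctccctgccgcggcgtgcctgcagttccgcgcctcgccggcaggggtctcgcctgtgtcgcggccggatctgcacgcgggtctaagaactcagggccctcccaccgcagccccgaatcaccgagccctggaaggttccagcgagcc

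RAP1GAP2: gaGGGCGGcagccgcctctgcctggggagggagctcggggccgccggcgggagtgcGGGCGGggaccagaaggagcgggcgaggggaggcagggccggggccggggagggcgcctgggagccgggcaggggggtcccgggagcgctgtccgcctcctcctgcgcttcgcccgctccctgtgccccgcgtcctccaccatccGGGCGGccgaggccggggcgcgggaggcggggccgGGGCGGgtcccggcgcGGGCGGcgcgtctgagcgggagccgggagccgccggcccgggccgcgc

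LOC107985904: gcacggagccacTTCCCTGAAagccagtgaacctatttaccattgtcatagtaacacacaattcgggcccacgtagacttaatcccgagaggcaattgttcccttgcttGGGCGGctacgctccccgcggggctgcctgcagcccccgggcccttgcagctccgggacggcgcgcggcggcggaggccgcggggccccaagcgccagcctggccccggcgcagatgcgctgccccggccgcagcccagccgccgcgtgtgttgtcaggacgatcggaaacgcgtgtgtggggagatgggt

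LOC124906252: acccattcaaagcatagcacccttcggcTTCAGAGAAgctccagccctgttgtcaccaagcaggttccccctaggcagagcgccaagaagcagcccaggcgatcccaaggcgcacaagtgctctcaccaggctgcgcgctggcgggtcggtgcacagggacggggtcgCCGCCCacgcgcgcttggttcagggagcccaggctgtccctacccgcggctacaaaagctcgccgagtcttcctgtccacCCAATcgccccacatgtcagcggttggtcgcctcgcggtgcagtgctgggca

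JAK2: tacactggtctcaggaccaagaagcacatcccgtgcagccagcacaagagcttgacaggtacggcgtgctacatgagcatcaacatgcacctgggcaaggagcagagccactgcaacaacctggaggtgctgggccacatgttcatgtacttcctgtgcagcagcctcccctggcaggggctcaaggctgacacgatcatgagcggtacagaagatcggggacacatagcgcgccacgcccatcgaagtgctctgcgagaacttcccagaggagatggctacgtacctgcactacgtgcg

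The LINC03006 window held 2 CCAAT boxes, 1 ETS core and 1 GC box. In the FAM193A window 1 CCAAT box overlapped 1 YY1 core, and 1 GC box stood apart from them. RAP1GAP2 had 5 GC boxes and no other match. The STAT palindrome was TTCCCTGAA in the LOC107985904 window and TTCAGAGAA in the LOC124906252 window. Both of these windows held 1 GC box, and the second also 1 CCAAT box. Neither palindrome lay inside a peak of either list. The first lay 238 bases before a start at 80322641, and the peaks began at 80322474 and 80322501. The second lay 222 bases before a minus-strand start at 160039059, and the peaks ended at 160039181 and 160039221. The LOC124909476 and JAK2 windows matched none of the 8 motifs, which says only that these letters are not in those windows.

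Later intron peaks were weak and narrow beside promoter peaks. The fold below is the authors' own linear enrichment per peak, whose denominator no label states, and it describes peaks within a list. In the knockdown list it ran from 2.19 to 82.9 with a median of 3.96 (quartiles 3.52 and 4.67), and in the wild-type list from 2.67 to 396 with a median of 5.09 (quartiles 4.21 and 6.37). First intron peaks had nearly the same medians, 3.96 and 5.13, distal intergenic peaks had 4.16 and 5.52, and promoter peaks within 1 kb of a start had 4.83 and 8.61. The median over all peaks also differed between the lists, 4.35 in the knockdown and 6.0 in the wild type.

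High folds were rare among them. A fold of at least 20 was reached by 5 knockdown peaks (0.155%) and 15 wild-type peaks (0.225%), against 1066 (6.85%) and 2370 (11%) of promoter peaks within 1 kb. Median width was 309 bp in the knockdown list and 385 bp in the wild-type list, where 64 peaks were 2 kb or wider. The authors' q-value was 0.001 or more in 1262 knockdown peaks (39.2%) and 1180 wild-type peaks (17.7%), while only 10.9% and 4.89% of promoter peaks within 1 kb were that close to the threshold of 0.05.

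**Figure D1:**
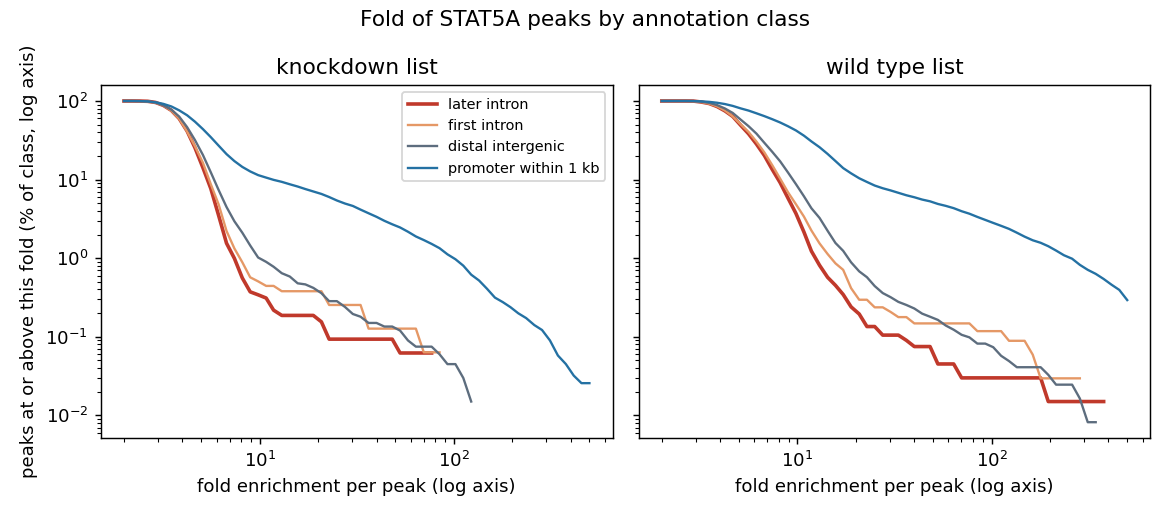
Percent of each annotation class (log axis) at or above a given fold (log axis), in the knockdown list (left) and the wild-type list (right), with later introns in thick red. The later intron curve runs beside or below the first intron and distal intergenic curves over most of its range, with its single peak of 396 above both in the wild type, and far below promoters, 6.85% and 11% of which reach a fold of 20.

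Just over 1 in 2 later intron peaks of the knockdown list had a wild-type counterpart. With an overlap of at least 1 bp, 1664 of 3217 knockdown peaks (51.7%, interval 50 to 53.5) met a wild-type peak of any class, and 1430 of 6659 wild-type peaks (21.5%, interval 20.5 to 22.5) met a knockdown peak. First introns gave 51.1% and 22.2%, distal intergenic peaks 59.1% and 29.9%, promoter peaks within 1 kb 93.7% and 64.0%, and all peaks 77.1% and 40.4%. The lists were of unequal size: with only the 31227 wild-type peaks of lowest q-value, the later intron shares were 34.5% and 37.1%. A reciprocal overlap of 50% lowered them to 25.7% and 12.2%, and summits within 100 bp to 21.7% and 9.93%.

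Later intron peaks overlapped less often than promoter peaks in most bins of fold. These bins do not match peak width. Median width was 309 bp (knockdown) and 385 bp (wild type) for later intron peaks, and 622 and 763 bp for promoter peaks within 1 kb. The part of width in the overlap was not tested. Among knockdown peaks of fold under 4, 49.2% of 1663 later intron peaks overlapped the other list (interval 46.8 to 51.7), against 86.9% of promoter peaks within 1 kb (interval 85.9 to 87.9). Among wild-type peaks of fold 10 to 20, the share was 69.9% of 216 later intron peaks (interval 63.3 to 75.9) and 94.7% of promoter peaks (interval 94.2 to 95.3). Below a fold of 4 in the wild type the classes were close, 11.8% for later introns and 14.5% for promoters. All 5 knockdown and all 15 wild-type later intron peaks of fold 20 or more had a counterpart. In 4 groups of like size by q-value, strongest first, 67.8%, 50.6%, 47.8% and 40.7% of knockdown peaks and 43.4%, 20.7%, 12% and 9.80% of wild-type peaks overlapped.

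**Figure D2:**
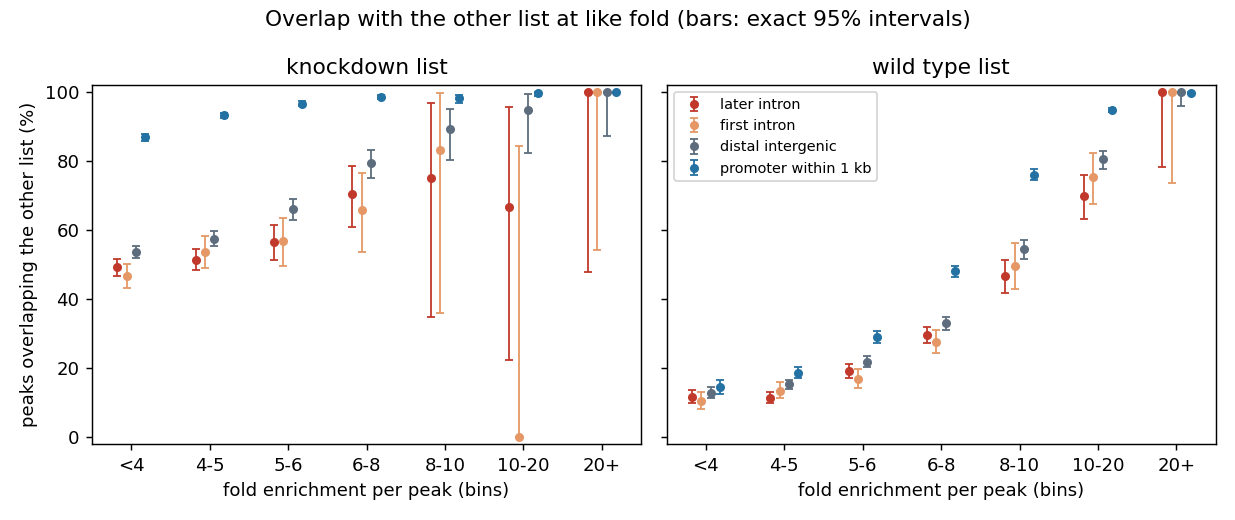
Percent of peaks that overlap the other list by at least 1 bp (points, with exact 95% intervals as bars) by bin of fold, for 4 annotation classes in the knockdown list (left) and the wild-type list (right). Later intron points stand beside first intron points in most bins and below promoters, as in the lowest knockdown bin, 49.2% against 86.9%; the knockdown bins from 8 up hold 8, 6 and 5 later intron peaks.

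The counterpart was mostly annotated as a later intron peak too. Where several peaks of the other list overlapped, the 1 of highest fold gives the class in the counts below. Of the 1664 overlapping knockdown peaks, 1473 (88.5%) had a wild-type later intron peak as that counterpart. All 1473 carried the same transcript and intron number in both lists, which follows largely from the overlap of their positions. Of the 1430 wild-type peaks, 1413 (98.8%) met a knockdown later intron peak. Another 124 of the knockdown peaks (7.45%) met a wild-type peak annotated as exonic, 31 a 3′ UTR peak, 26 a peak 1 to 3 kb from a start, 6 a promoter peak within 1 kb and 4 a 5′ UTR peak. Those wild-type counterparts were wide, with a median of 1374 bp for exonic and 1573 bp for 3′ UTR peaks, against 554 bp for later intron counterparts. The annotation gives 1 class per peak.

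Within the 1473 same-intron pairs the median fold was 4.08 in the knockdown list and 6.35 in the wild-type list. The wild-type fold was the larger in 1288 pairs and the knockdown fold in 185, with 1 library behind each side and no test. Each knockdown peak was paired with the wild-type peak of highest fold that it overlapped. That choice favours the wild-type fold, and a wild-type peak can stand in more than 1 pair. Summits lay a median of 123 bp apart, and 651 pairs (44.2%) had them within 100 bp. The 1553 knockdown peaks without a counterpart lay a median of 11.6 kb from the nearest wild-type peak, and the 5229 wild-type peaks without one lay 10.7 kb from the nearest knockdown peak. Few were near misses: 262 (16.9%) and 513 (9.81%) had a peak of the other list within 1 kb.

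**Figure D3:**
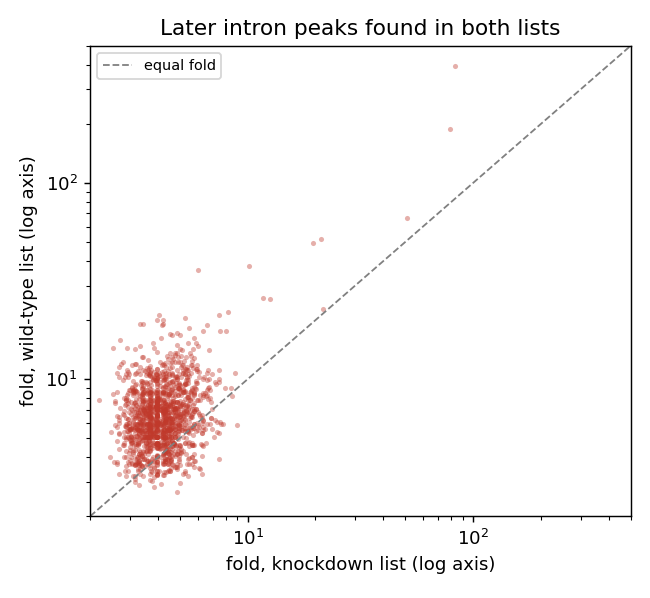
Fold in the wild-type list (vertical, log axis) against fold in the knockdown list (horizontal, log axis) for the later intron pairs found in both lists, 1 point per pair, with a dashed line of equal fold. Each knockdown peak is paired with its overlapping wild-type peak of highest fold, so a wild-type peak can recur. Most points lie above the line, 1288 of 1473, in a cloud around 4.08 and 6.35; 3 points at the upper right are LINC03006, IGF1R and SRF.

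The strongest later intron peaks were the same sites in both lists. The first by fold lay in intron 2 of 7 of LINC03006, a long noncoding RNA, at chr7:65750723-65751555 with fold 82.9 in the knockdown and chr7:65750637-65751543 with fold 396 in the wild type; its summits fell inside the LINC03006 start window printed above. The second lay in intron 2 of 20 of IGF1R, the receptor for insulin-like growth factors, at chr15:98852148-98852741 with fold 79.3 and chr15:98852171-98852750 with fold 188. The third lay in intron 2 of 6 of SRF, the serum response factor, with fold 50.9 at chr6:43174458-43174900 and 66.5 in the wild type. These 3 sites had q-values listed at 0 in both lists.

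The other IGF1R intron peaks were far weaker. The knockdown list held 3 more, of fold 2.36, 6.08 and 2.97, and the wild-type list 3 more, of fold 6.17, 3.70 and 3.49. None of those 6 overlapped the other list.

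A further group of high-fold sites was also paired. The peak in intron 2 of 8 of ZNF608, a zinc finger gene, had folds of 21.2 in the knockdown and 52.0 in the wild type. One in intron 3 of 4 of RNF4, which encodes a ubiquitin ligase for SUMO-modified proteins, had 19.6 and 49.4, and it covers the start of the neighbouring gene FAM193A, shown above. BICDL1, a dynein adaptor gene, had 10.1 and 37.8 in intron 7 of 8. PLEKHO2 had 11.7 and 25.9 in intron 5 of 5. A transcript without a gene symbol, near ZBTB38, had 12.6 and 25.5. RAI1, a transcriptional regulator gene, had 6.0 and 36.0 in intron 2 of 5. KCNQ1-AS1, an antisense noncoding RNA, was nearly level at 21.7 and 22.7, in intron 2 of 2. This site begins at chr11:2851630 in the knockdown, past the end of the potassium channel gene KCNQ1 at 2849105.

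Sites without a counterpart reached folds of 11.3 in the knockdown list and 15.9 in the wild type. In the knockdown list the highest was in MST1R, a receptor tyrosine kinase gene, at intron 19 of 19 (chr3:49888396-49888889) with fold 11.3. It was followed by a site credited to LINC02328 at 10.9, by ZNF91 at 8.43, by MGMT, which encodes a DNA repair enzyme for alkylated guanine, at 8.41, by ZNF83 at 7.75 and by the ciliary gene OFD1 at 7.43. ZNF91 and ZNF83 belong to the zinc finger clusters of chromosome 19, whose members are near copies, so reads there may be placed with less certainty.

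In the wild-type list the highest site without a counterpart was in MIR924HG, a miRNA host transcript, with fold 15.9. PPP2R5C, a regulatory subunit of protein phosphatase 2A, had 14.5 in intron 2 of 15 (chr14:101780959-101781975). Sites credited to JARID2, a polycomb cofactor gene, and to PGPEP1L had 13.7 and 12.7. A site in LOC100507412 credited to the ribosomal RNA gene RNA5-8SN5 had 12.5 and lies in a repeated array on chromosome 21, where reads cannot be assigned to 1 copy. CHLSN had 12.4 in intron 2 of 4.

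Peaks were spread along the intron order much alike in both lists. Intron 2 held 28.6% of the knockdown peaks (interval 27.0 to 30.2) and 29.0% of the wild-type peaks (interval 27.9 to 30.1), intron 3 held 18.1% of each, and introns from 21 on held 4.72% and 4.31%. The median intron number was 4, and 20.0% and 18.9% of peaks lay in the last intron of their transcript. Fold did not vary with intron number beyond 3.96 to 4.03 (medians by group) in the knockdown list and 4.97 to 5.24 in the wild type. Overlap with the other list ranged over 45.6% to 57.7% and 17.4% to 24.3% across the same groups.

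The nearest start was often far away. The median distance to the start the authors credited was 19.5 kb in the knockdown list and 15.9 kb in the wild type, with 353 (11%) and 532 (7.99%) peaks more than 100 kb away. No later intron peak lay closer than 3003 bp to the credited start, because the annotation gives a peak within 3 kb of a start in its own transcript set to the promoter class; starts that RefSeq alone holds can lie closer. The peak lay upstream of the credited start in 43.0% and 43.1%, and the credited gene was the host of the intron in 77.0% of peaks with a host gene ID in each list; the others were credited to a neighbour or a gene nested in the intron. MicroRNA genes were credited with 156 knockdown peaks (4.85%) and 325 wild-type peaks (4.88%), of which 21 and 32 were credited to MIR153-2, inside PTPRN2.

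Only 1 miRNA hairpin itself lay under a later intron peak. It was MIR6860 (chr11:67045643-67045708, plus strand), under a wild-type peak of fold 4.40 in intron 9 of 10 of SYT12, a synaptotagmin gene, with no knockdown counterpart. Its mature sequence from RefSeq is shown with the seed, bases 2 to 8, in capitals.

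hsa-miR-6860: aCUGGGCAgggcuguggugagu

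Longer genes were more often hosts of a later intron peak, and no share per kb of intron was taken. RefSeq matched 1496 host genes in the knockdown list and 2316 in the wild type, with 1010 in both (67.5% of the first and 43.6% of the second). Most host genes held 1 peak, 1092 and 1428 of them. At the other end, 29 genes with 10 or more peaks held 701 knockdown peaks (23.8% of those matched), and 95 such genes held 2199 wild-type peaks (35.6%). By gene length, 0.846% and 1.66% of protein-coding genes shorter than 20 kb hosted a peak, against 37.7% and 48.0% of the 771 genes of 300 kb or longer.

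PTPRN2, a phosphatase-like protein of secretory granules, held most, 108 knockdown and 163 wild-type peaks over 1049 kb. Its folds ran from 2.90 to 8.04 in the knockdown and from 2.96 to 19.1 in the wild type, and 72 and 65 of the peaks had a counterpart. Intron 11 of 21 alone held 37 and 47 of them. MAD1L1, a spindle checkpoint gene, came next with 53 and 107 peaks over 417 kb, of which 50 and 38 had a counterpart, and its folds ran from 2.70 to 5.60 and from 3.23 to 11.6.

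The other genes with most peaks differed in how the lists compared. INPP5A, an inositol phosphatase gene, had 34 and 64 peaks, SHANK2, a synaptic scaffold gene, 36 and 53, ADAMTS2, a procollagen protease gene, 38 and 52, and PRDM16, a transcription factor gene, 31 and 43. KCNQ1, a potassium channel gene, had 20 and 66, and CDH4, a cadherin gene, 29 and 55. Named after their values were seen, NFATC1, a transcription factor of lymphocyte activation, had 27 and 32 peaks, and all 27 of the knockdown had a counterpart. RXRA, a nuclear receptor gene, also named after its values were seen, had 5 and 42, of which 3 and 2 overlapped.

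**Figure D4:**
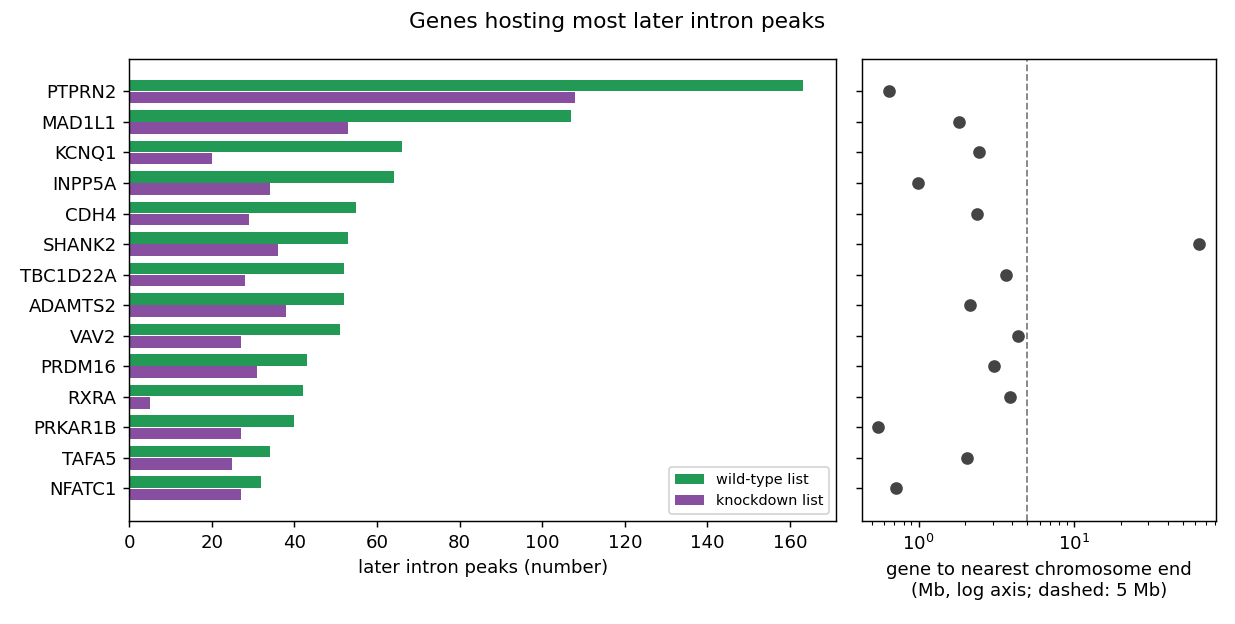
Number of later intron peaks per gene (left; green wild-type list, purple knockdown list) for the 14 genes with most peaks in either list, and distance from the gene to the nearest chromosome end (right, Mb, log axis, dashed line at 5 Mb). PTPRN2 leads with 163 and 108, and every gene but SHANK2, at 63.8 Mb, is within 5 Mb of an end.

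**Figure D5:**
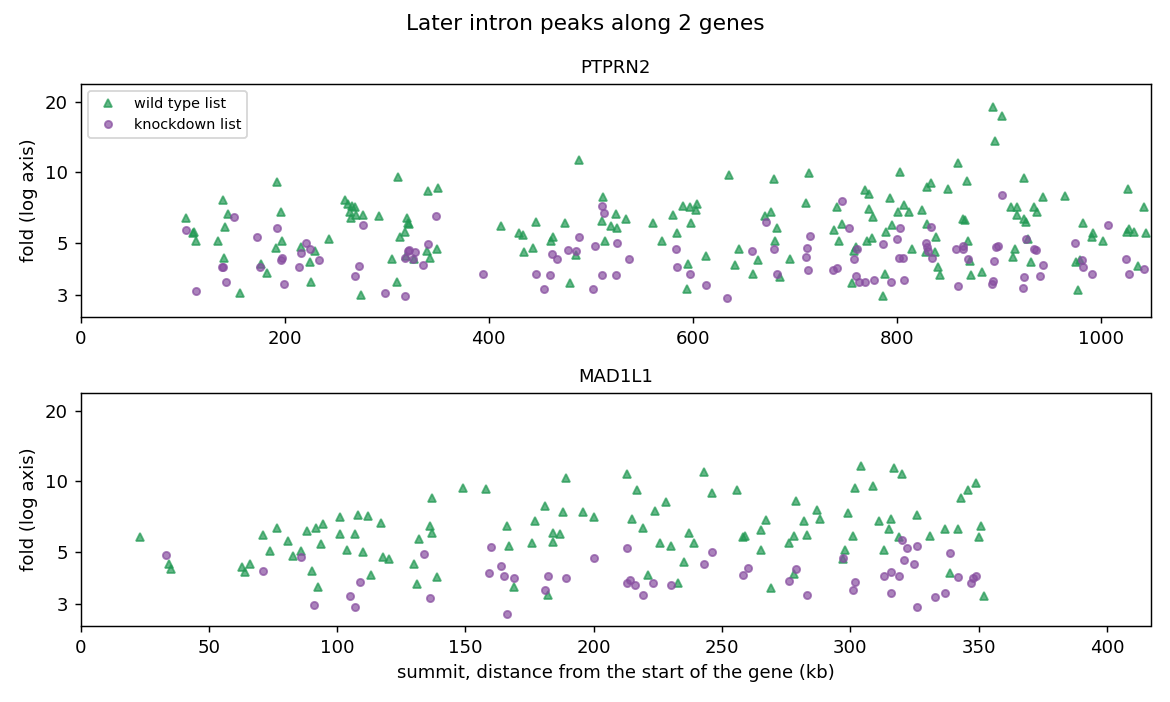
Fold (vertical, log axis) of each later intron peak along PTPRN2 (top) and MAD1L1 (bottom) against the distance of its summit from the start of the gene in kb; triangles are wild-type peaks and circles knockdown peaks. Peaks of both lists are spread over most of each gene, with knockdown points up to 5.60 in MAD1L1 and the highest wild-type point in PTPRN2 at 19.1.

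Of the 14 genes with most peaks in either list, all but SHANK2 lie within 5 Mb of a chromosome end. Of all later intron peaks, 42.1% in the knockdown list (interval 40.4 to 43.8) and 46.8% in the wild type (interval 45.6 to 48.0) lay within 5 Mb of a chromosome end, while 13.2% of protein-coding genes and 8.33% of their length lie there. First intron peaks gave 36.0% and 43.6%, distal intergenic peaks 30.5% and 35.2%, promoter peaks within 1 kb 17.8% and 23.1%, and all peaks 26.7% and 33.6%. In the knockdown list, 66.3% of later intron peaks within 5 Mb of an end had a counterpart (interval 63.7 to 68.8) against 41.1% of those farther in (interval 38.9 to 43.4); the wild-type shares were 22.8% and 20.3%. Chromosome 7, with PTPRN2 near one end and MAD1L1 near the other, held most members, 394 and 715, and X fewest, 23 and 56. Copy number in ARP1 was not measured here, and its part in these counts was not tested.

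Few later intron peaks touched the start window of any RefSeq transcript. In the knockdown list 29 (0.901%, interval 0.605 to 1.29) touched a start window, and in the wild type 62 (0.931%, interval 0.715 to 1.19), against 1.46% and 1.45% of first intron peaks and 3.04% of distal intergenic peaks in each list. The windows numbered 73 in either list and 25 in both. The start itself lay inside the peak for 24 of the 32 knockdown windows and 45 of the 66 wild-type windows. In the knockdown list 18 of 32 windows were of long noncoding RNAs and 10 belonged to the host gene itself; in the wild type these were 40 and 16 of 66.

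Later intron peaks that touched a start window had a counterpart more often than later intron peaks as a whole. Of the 29, 28 overlapped a wild-type peak (96.6%, interval 82.2 to 99.9), beside 51.7% of all later intron peaks, and in the wild type 28 of 62 overlapped (45.2%, interval 32.5 to 58.3), beside 21.5%. Their median folds were 4.26 and 6.48. The rise was not particular to later introns. First intron peaks that touched a start window overlapped in 91.3% (knockdown) and 49.0% (wild type). Distal intergenic ones overlapped in 93.1% and 55.5%. The 73 start windows under later intron peaks were GC-rich, with a median of 63.7% against 58.7% over all 35116 windows. The median was 66.3% for those under peaks of both lists.

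The STAT palindrome was not set apart from the background at this number of windows. It was in 8 of the 73 windows (11%, interval 4.85 to 20.5) and in 7.66% of all windows, and in 1 of the 29 windows that held a summit. CCAAT was in 24.7% against 34.6%, CCGGAAG in 4.11% against 10.3%, GGGCGG in 43.8% against 45.0%, TGANTCA in 8.22% against 7.71%, and GCCATNTTG in 2.74% against 2.92%. TGACGTCA and GCATGCG were in none of the 73, which allows shares up to 4.93% (exact upper bound), and in 1.85% and 3.91% of all windows. In windows under peaks of both lists GGGCGG was in 64.0% (interval 42.5 to 82.0). CCAAT can overlap GCCATNTTG at its last letters, as in FAM193A.

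The 8 palindromes lay in windows of CAMTA1, HK1, TCF7L2, NEDD4L, LOC107985904, LOC124906252, LOC105369213 and LOC124904075, named for the motif and not by fold. The matches in TCF7L2, NEDD4L and LOC124904075 lay inside a later intron peak. Those in CAMTA1, HK1, LOC107985904, LOC124906252 and LOC105369213 lay outside the peaks that touched the window. The match lay 189 bases before the start in CAMTA1 (TTCAAGGAA), 63 before it in HK1 (TTCGGGGAA) and 29 after it in TCF7L2 (TTCTGTGAA). Both windows found in the 2 lists are printed above. LOC107985904 lies in intron 11 of 21 of CTNNA2, a catenin gene, and was touched by peaks of fold 7.29 in the knockdown and 5.39 in the wild type, so that here the knockdown fold was the larger. LOC124906252 lies in intron 3 of 9 of IL12A-AS1, the antisense transcript of the cytokine subunit gene IL12A, with folds of 4.35 and 10.7.

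Genes of the pathways the labels point to were counted for a later intron peak, beside the share of all protein-coding genes. Over 19974 protein-coding genes, the background was 6.64% with at least 1 in the knockdown list, 10.3% in the wild type and 4.52% in both. Of 24 genes of JAK-STAT signalling (median length 49.6 kb), 1 had one in the knockdown and 3 in the wild type, near that background. Of 24 known STAT5 targets, among them the feedback inhibitor CISH, none had one in either list; their median length is 6.08 kb, a length at which few genes have such a peak. STAT5A and YTHDF2 themselves had none.

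JAK2 was the JAK-STAT gene with peaks in both lists. The knockdown list had 2 in intron 4 of 24, at chr9:5041178-5041840 with fold 5.08 and chr9:5042646-5043189 with fold 6.11, and both met a single wild-type peak at chr9:5041714-5043177 with fold 6.65. The first of them covers the JAK2 window printed above, which RefSeq gives as a downstream start of the gene; the wild-type peak begins past that window. In intron 22 the lists parted, with a knockdown peak of fold 3.61 at chr9:5113746-5113976 and a wild-type peak of fold 10.5 at chr9:5110979-5112499. IL6R, the interleukin-6 receptor gene, had 1 wild-type peak of fold 5.11 in intron 7 of 9, and PTPN1, a phosphatase gene of the pathway, 1 of fold 5.08 in intron 7 of 8.

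In the RAS-RAF-MEK-ERK cascade, 1 of 30 genes (3.33%) had peaks in each list, beside 6.64% and 10.3% of all protein-coding genes. It was MAP2K2, which encodes the kinase MEK2. Its knockdown peak, at chr19:4112209-4112452 in intron 2 of 10, had fold 3.07 and a q-value of 0.0168. The 5 wild-type peaks had folds of 5.91 in intron 10, 5.89 in intron 8, 4.05 in intron 3, and 5.21 and 5.09 in intron 2. None overlapped the other list, but the miss in intron 2 was narrow. The knockdown peak ends at 4112452, and the wild-type peak of fold 5.21 spans chr19:4112507-4112771, within 100 bp of it.

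Of 21 writers, erasers and readers of N6-methyladenosine, 1 (4.76%) had a peak in the knockdown list and 4 (19.0%) in the wild type. None had one in both. The shares of all protein-coding genes were 6.64% and 10.3%. The knockdown gene was IGF2BP3, a reader, at fold 3.34. The wild-type genes were the readers YTHDF3 at 6.49, IGF2BP1 at 6.45 and YTHDF1 at 3.47, and the methyltransferase METTL16 at 3.81.

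Of 24 plasma cell and myeloma genes, 1 had a knockdown peak (4.17%) and 3 a wild-type peak (12.5%). All protein-coding genes gave 6.64% and 10.3%. IKZF1, a lymphoid transcription factor that is the target of lenalidomide-type drugs, had the same site in both, at fold 2.90 and 4.30. FGFR3, a receptor activated by translocation in myeloma, had a wild-type peak of fold 6.24, and TNFRSF13B, a receptor for plasma cell survival factors, had 2, the higher of fold 4.11. Of 24 genes of B-cell receptor and NF-kB signalling, none had a knockdown peak and 2 (8.33%) had a wild-type peak. SYK, a kinase gene downstream of the B-cell receptor, had a wild-type peak of fold 4.06.

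Chromatin and transcription regulators had most, 4 of 24 in the knockdown (16.7%) and 8 in the wild type (33.3%), beside 6.64% and 10.3% of all protein-coding genes. Their median length of 127 kb is also the largest of the 9 lists. Of protein-coding genes of 100 to 300 kb, 17.2% hosted a later intron peak in the knockdown list and 25.4% in the wild type. ARID1B, a subunit of the BAF remodelling complex, had 1 site of fold 4.05 at chr6:157021067-157022100 in the knockdown and 21.3 at chr6:157021045-157022288 in the wild type. HDAC4, a histone deacetylase gene, had 7 and 34 peaks. DNMT3A, a DNA methyltransferase gene, had 1 wild-type peak of fold 6.53. The 28 markers of other tissues and the 24 housekeeping genes had none. Their median lengths are 14.5 and 6.74 kb. Of protein-coding genes shorter than 20 kb, only 0.846% (knockdown) and 1.66% (wild type) hosted a later intron peak. Peaks do not measure expression, so these lists check no cell type.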

How the data were processed

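The data are chromatin immunoprecipitation sequencing of STAT5A in ARP1 cells, with 1 peak list per condition; read depth is unknown. Per the submitters' processing notes, the tools were MACS2, Bowtie2, cutadapt, Trimmomatic and FastQC, and the build was hg38. Versions and the annotation tool are not given in the sources used here. Fold per peak is a linear ratio deposited by the authors. The p-values and q-values were deposited by the authors, and the highest q-value was 0.05. No deposited value says that samples were pooled.

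Later intron peaks are rows annotated as introns other than intron 1. Overlap, counts, medians and exact Clopper-Pearson intervals were computed in Python 3.11.15 with pandas 2.3.3, numpy 2.4.6 and scipy 1.17.1. Overlap counts were checked with bedtools 2.31.1 and tested on simulated data. Positions are hg38, 1-based. The host gene is the gene ID inside the annotation, matched to RefSeq genes (GRCh38.p14) for 2940 of 3217 and 6176 of 6659 peaks; 255 and 445 had no gene ID. The intron number depends on the transcript the annotation picked, and nearness to a start (3 kb) or an exon is judged on the annotation's own transcript set, so a later intron peak can cover a start or exon that RefSeq holds. A chromosome end is the coordinate start (not for acrocentric chromosomes) or the end of the last RefSeq gene. Sequences are RefSeq's; motifs were sought on both strands.

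Named genes are the 10 highest-fold peaks per list, the 6 of highest fold without a counterpart, the 6 host genes with most peaks, up to 4 members of each of 9 gene lists, and YTHDF2, STAT5A and MAP2K2; other names were chosen after their values were seen, and some list members are not reported here. The peaks and lists were chosen with earlier results of these data known. Alternatives were q-value and fold minimums, a wild-type list reduced to the 31227 peaks of lowest q-value, other overlap rules, merging within 100 bp, each intron counted once and the authors' credited gene. The planned motif share over all peaks was not run, as no genome was used here.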

Additional observations from a re-analysis of the deposited data

How the results depend on the processing

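Of 52 alternative values, 22 stayed within the interval of the main value (or 1.5 times a count) and 30 moved. The 22 include knockdown values that reducing the wild-type list cannot change: the count, median fold, intron 2 share and gene list members. The count of later intron peaks was 1955 (knockdown) with q-values under 0.001, and 516 (knockdown) and 3659 (wild type) with a fold of at least 5. With the wild-type list held to as many peaks as the knockdown list, 2437 wild-type peaks remained, 34.5% of knockdown and 37.1% of wild-type peaks overlapped, and the wild-type median fold was 6.92: the gap between the 2 shares, 51.7% and 21.5% as deposited, closed. Overlap was 54.2% (knockdown) at q-values under 0.001, and 20.1% and 17.0% (wild type) at q-values under 0.01 and 0.001. It was 6.78% of the wild type where both lists were held to a fold of at least 5. A 50% reciprocal overlap gave 25.7% and 12.2%, summits within 100 bp 21.7% and 9.93%, and overlap with a later intron peak alone 45.9% of the knockdown. Median fold was 4.20, 4.49 and 5.54 (knockdown) and 5.19, 5.50 and 6.19 (wild type) at q-values under 0.01, under 0.001 and a fold of at least 5, which filter on strength by construction. The share in intron 2 was 31.0% (knockdown) and 30.4% (wild type) at that fold, 31.0% with the wild-type list reduced and 26.5% with each wild-type intron counted once. Gene list members with a peak, 8 and 21 of 223 as deposited, were 5 (knockdown) at q-values under 0.001, 1 and 11 at a fold of at least 5, and 10 (wild type) with the list reduced. No paired analysis was possible because each condition has 1 peak list and the conditions share only 1 replicate number; leaving out a replicate was likewise not possible, and the motif share over peaks was not run. Depth limits which weak peaks could be called and is unknown.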
